A study of Mus musculus with 6 samples.

Results

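The transcripts of the IGF-binding proteins, Igfbp1 to Igfbp7, were examined in mouse liver after acute carbon tetrachloride (CCl4) injury. They were taken by gene symbol from a table of 24346 genes, and all 7 were listed with a value above 0 in each of 6 whole-liver RNA-seq libraries. Control mice (genotype wt in the sample labels, med23f/f in the design text) were compared with mice lacking the Mediator subunit Med23 in hepatocytes (med23 ko, or med23Δli), 3 libraries each. All were male C57/BL6 mice, 8 weeks old, given 0.6 μl/g CCl4 in sunflower oil into the abdomen and killed 24 hours later, and CCl4 was thus common to both groups. No uninjured liver was analysed here. The deletion is driven by an Albumin promoter, which is active in hepatocytes, and the authors call it hepatocyte-specific. Med23 in the other liver cells was not measured here.

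The IGF-binding proteins are secreted proteins that hold IGF1 and IGF2 in blood and tissue, lengthen their life and control how much reaches the IGF1 receptor. Liver is the main source of circulating Igf1 and of Igfbp1, whose gene is switched off by insulin and switched on by fasting and by liver injury. Igfbp7 is a distant relative with low affinity for IGFs that is deposited in the basement membrane of vessels.

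Values are FPKM, fragment counts scaled for transcript length and sequencing depth, which can be compared between genes. Read counts are not part of the table, so the depth of each library cannot be read from it and only the spread between libraries is given as error. P-values measure the spread between these libraries, each labelled as a separate sample. Med23 itself was at 2.97 to 4.14 FPKM in control libraries and 2.91 to 3.40 in the others (log2 fold change -0.10, limma adjusted p = 0.686). These values did not separate the groups. A value for the whole gene does not isolate the deleted part and cannot check the labels, so every direction below is drawn for "the libraries labelled med23Δli". Hepatocyte markers were abundant in all 6 libraries, with 0 of 10 past the test used here and a summed level of 27390 to 37580 FPKM in controls against 24340 to 31050.

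Igfbp1 and Igfbp3 lie tail to tail on mouse chromosome 11 (mm10, GENCODE M21: Igfbp1 at chr11:7197782-7202546 on the plus strand, Igfbp3 at chr11:7206086-7213923 on the minus strand), 3539 bases apart with 0 annotated genes between them. Igfbp2 (chr1:72824503-72852474, plus) and Igfbp5 (chr1:72857932-72874884, minus) form the same arrangement on chromosome 1, with 5457 bases between them. Igfbp4 (chr11:99041244-99054392, plus), Igfbp6 (chr15:102144362-102149511, plus) and Igfbp7 (chr5:77349240-77408041, minus) stand alone.

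The promoters of Igfbp1, the member with the highest ratio between groups, and of Igfbp7, the member that passed the test, are shown as the 250 bases before the RefSeq start site (GRCm38.p6), 5′ to 3′ on the gene's own strand. The first spans chr11:7197537-7197786 (plus strand) and the second chr5:77408046-77408295 (minus strand). Capitals mark a match to CAAAACA, the core of the insulin response element bound by FOXO factors.
Igfbp1: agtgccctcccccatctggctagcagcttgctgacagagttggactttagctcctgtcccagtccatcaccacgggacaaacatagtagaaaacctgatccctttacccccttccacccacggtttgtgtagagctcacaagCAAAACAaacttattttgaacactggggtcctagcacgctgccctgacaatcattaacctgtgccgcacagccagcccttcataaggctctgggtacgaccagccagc
Igfbp7: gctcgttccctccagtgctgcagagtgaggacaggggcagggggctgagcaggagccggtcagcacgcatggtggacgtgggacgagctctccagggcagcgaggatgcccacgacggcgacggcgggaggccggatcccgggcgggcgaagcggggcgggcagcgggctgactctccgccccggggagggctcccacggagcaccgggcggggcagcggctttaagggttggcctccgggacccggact

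The Igfbp1 promoter held CAAAACA at positions -108 to -102 from the start. No match to it, to the forkhead sequence GTAAACA or to the nuclear receptor motif AGGTCA was found in the windows of the other 6 members, searched on both strands from 250 bases before to 50 bases after the start. Of 32851 RefSeq promoters of that length, 6.28% held CAAAACA, 3.65% GTAAACA and 16.3% AGGTCA, and none of these sequences contains another. The Igfbp7 window was 73.3% G or C with 33 CpG pairs, against 54.3% and 8 for Igfbp1 and a median of 52.7% and 7 over all promoters. A match describes the letters of the window only.

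Igfbp4 and Igfbp1 carried most of the family's transcripts in injured liver (plot of FPKM by library). By mean level over the 6 libraries the order was Igfbp4, Igfbp1, Igfbp2, Igfbp7, Igfbp3, Igfbp6 and Igfbp5. Only the steps from Igfbp7 to Igfbp3 and from Igfbp3 to Igfbp6 held in 6 of 6 libraries, with ratios of 8.43 to 16.4 and 2.57 to 35.5. Igfbp4 exceeded Igfbp1 in all 3 control libraries but in 1 of the 3 labelled med23Δli, and Igfbp6 exceeded Igfbp5 in 3 of 6, so these neighbours were not ordered beyond their spread. Igfbp1 exceeded Igfbp2, and Igfbp2 exceeded Igfbp7, in 5 of 6.

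**Figure D1:**
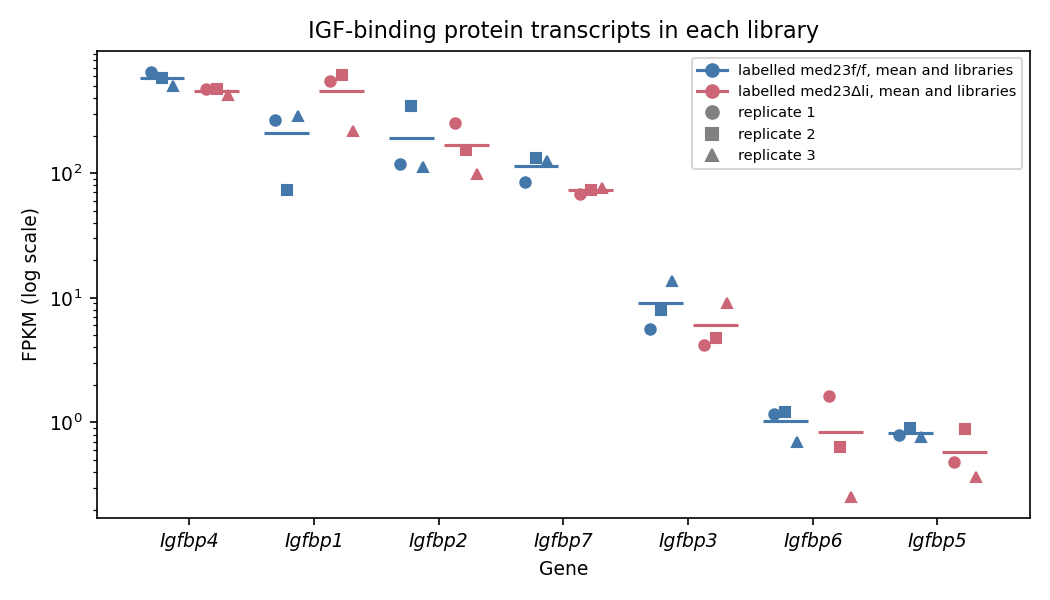
FPKM (log scale) of the 7 IGF-binding protein genes, ordered by mean level. Each point is 1 library, marker shapes give the replicate number and horizontal lines the mean of 3 libraries. The Igfbp7 and Igfbp4 points of libraries labelled med23Δli all lie below those of controls, the other 5 genes overlap, and control replicate 2 is lowest for Igfbp1 and highest for Igfbp2.

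One comparison was made for every gene: libraries labelled med23Δli against controls, on log2(FPKM + 0.1) with limma, with Benjamini-Hochberg adjustment over 11956 genes, those averaging 0.5 FPKM or more across the 6 libraries. Fold changes are on that scale, which understates changes of low genes. A gene passed the test at an adjusted p under 0.05. All 7 members were above the filter. In the libraries labelled med23Δli, 1 of 7 (Igfbp7) was lower and 0 of 7 were higher, where 9.48% and 11.6% of all tested genes were (21.1% in either direction). Of the 7, 0 passed the stricter rule that also asks for over 2-fold, which 4.45% of tested genes passed as higher, 3.45% as lower and 7.9% in all. Values of the groups did not overlap for 2 of 7, Igfbp4 and Igfbp7, both lower in the libraries labelled med23Δli. Of all tested genes, 20.4% were separated in that direction, 23.3% in the other and 43.7% in either, so the members' counts were close to the background. The fold change was below 0 for 6 of 7 members and for 47.8% of tested genes, and the median was -0.51 against 0.024. Members are few and were not tested as a group.

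Igfbp7 was the member that fell. It was at 85.1, 132 and 125 FPKM in controls (114 ± 25.15, SD, n = 3) and at 68.5, 73.6 and 76.2 in libraries labelled med23Δli (72.8 ± 3.94, n = 3). Every library labelled med23Δli was below every control, and the closest pair was control replicate 1 and replicate 3 of the others. The log2 fold change was -0.62 (SE 0.183, 95% interval -1.04 to -0.20, limma adjusted p = 0.0469), a ratio of 0.65. The exact two-sided permutation test gave p = 0.1, the smallest that 3 against 3 allows. The call ended in 5 of 6 fits with 1 library left out (adjusted p of 0.107 and 0.081 without control 2 and 3, and of 0.150, 0.124 and 0.106 without replicates 1, 2 and 3 of the others). It ended also with no filter (0.0727) and without the variance trend (0.0633).

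Genes of liver endothelial cells, a known source of Igfbp7, were lower in the same libraries. All 10 markers had a fold change below 0 and 9 passed the test: Pecam1, Stab1, Stab2, Lyve1, Kdr, Clec4g, Oit3, Eng and Cdh5, with Flt1 at -0.69 (limma adjusted p = 0.0638). Clec4g, a lectin of sinusoidal endothelium, was at 51.0, 83.9 and 64.5 FPKM in controls and 27.9, 26.4 and 26.7 in libraries labelled med23Δli. The markers' summed level was 126.0 to 168.1 FPKM against 68.92 to 73.19, and none was listed at 0.

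Control replicate 1 was the lowest control in both Igfbp7 and the summed markers. Relative to the control mean, the libraries labelled med23Δli averaged 0.639 for Igfbp7 and 0.476 for the summed markers. Clec4g carried much of that sum and stood at 0.406, whereas the other markers stood at 0.467 (Lyve1) to 0.591 (Flt1). The ratio of Igfbp7 to the summed markers was 0.675 to 0.815 in controls and 0.935 to 1.11 in the other group, but with Clec4g left out of the sum the ranges overlapped, at 1.14 to 1.56 and 1.51 to 1.81. In whole liver, fewer cells of a type and less RNA per cell cannot be told apart, and the part of endothelial content in the Igfbp7 difference was not tested.

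**Figure D2:**
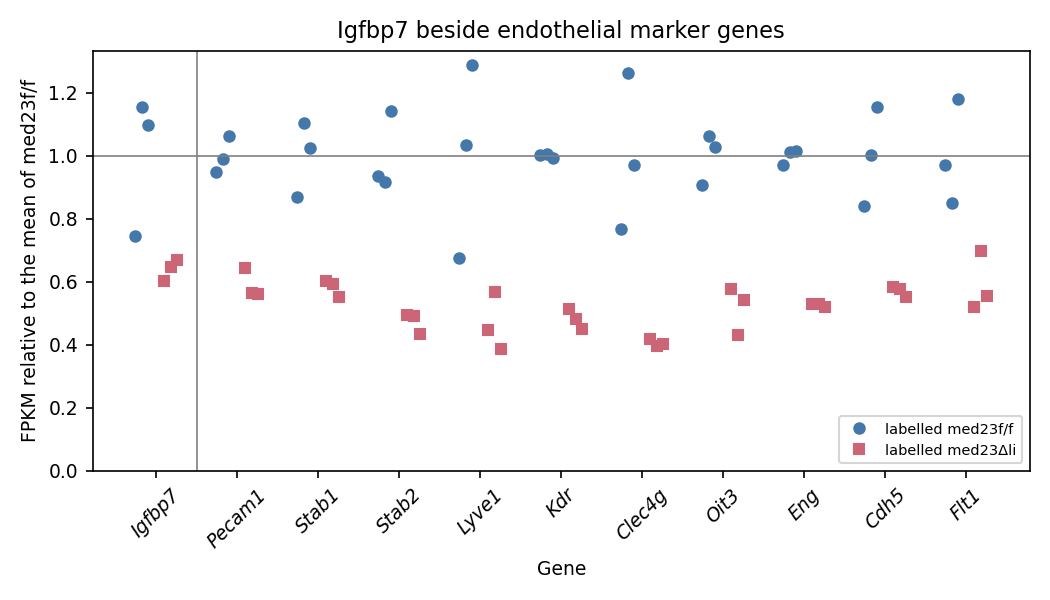
FPKM of Igfbp7 (left of the vertical line) and of 10 endothelial marker genes, each relative to its mean in the 3 control libraries (horizontal line at 1). Points are libraries. For every gene shown the 3 libraries labelled med23Δli lie below the 3 controls, with a mean of 0.639 for Igfbp7.

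Stellate cell and fibroblast markers, a second source of IGF-binding proteins, summed to 170.0 to 216.0 FPKM in controls and 117.3 to 153.1 in libraries labelled med23Δli. Ecm1 (mean 87.7 FPKM in controls against 54.5) and Dcn (71.8 against 57.9) carried most of these sums. Of 9 tested, 2 were lower (Des and Ecm1), where 9.48% of all tested genes were, and 7 did not pass. The fold change was below 0 for 7 of the 9 and above 0 for Reln (0.47) and Lum (0.36). Hhip, the tenth, was under the filter. None of 8 Kupffer cell, 5 biliary or 4 mesothelial markers tested passed. Of 6 blood genes tested, 1 (Hba-a1) was higher, 3 had a fold change below 0 without passing, and the near-identical globin copies make the split between them uncertain.

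The second library labelled med23Δli stood apart in adipocyte markers. Their summed level was 199.6 FPKM there, 28.74 and 33.8 in the other two of its group and 72.66 to 144.4 in controls. Adipoq was at 5.65 FPKM and Plin1 at 2.76 in that library, while both were listed at 0 or under 0.1 in the other 5, and Fabp4 was at 177 against 23.2 to 66.3. Of 3 tested, Cidec, which hepatocytes also express, was lower (limma adjusted p = 0.0161) and Adipoq and Fabp4 did not pass. Igfbp1 was highest and Igfbp7 between the others of its group in that library. Without it their log2 fold changes were 0.95 (adjusted p = 0.362) and -0.63 (0.124), and the part of fat tissue in the members' values was not tested.

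Igfbp4, an inhibitory carrier that releases IGF when the protease PAPP-A cuts it, had the highest mean over the 6 libraries and the smallest residual spread of the members. It was at 647, 577 and 497 FPKM in controls (573 ± 75.1, n = 3) and at 469, 475 and 419 in libraries labelled med23Δli (454 ± 30.8, n = 3). The groups did not overlap, the lowest control lying just above the highest of the others. The log2 fold change was -0.33 (SE 0.148, 95% interval -0.67 to 0.013, limma adjusted p = 0.145, exact permutation p = 0.1), so the difference did not pass the test. It passed under quantile normalization (-0.44, adjusted p = 0.0347). Igfbp4 ranked 152nd to 223rd among all genes in every library, and its residual spread was larger than that of only 24.0% of tested genes.

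Igfbp1 had the largest ratio between group means of the members and the widest spread. It was at 266, 73.5 and 289 FPKM in controls (209 ± 118, n = 3) and at 543, 616 and 218 in libraries labelled med23Δli (459 ± 212, n = 3). The groups overlapped: the third library labelled med23Δli lay below 2 controls, and control replicate 2 was the lowest of all. The log2 fold change of 1.23 (SE 0.575, 95% interval -0.098 to 2.56) did not pass the test (limma adjusted p = 0.157, exact permutation p = 0.3). Its residual spread was larger than in 98.1% of tested genes. Without control replicate 2 the log2 fold change was 0.59 (adjusted p = 0.364), and without the third library labelled med23Δli it was 1.70 (0.107). The sign held in all 6 fits with 1 library left out, and none passed.

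Control replicate 2 was also the lowest of the 6 libraries for 6 of 7 listed genes that insulin represses through FOXO factors, where 29.3% of all tested genes were lowest in it. The list was chosen with earlier results of these data known, and the library was singled out by its low Igfbp1. The count is thus a description and was not tested. G6pc, the last enzyme of glucose release, was at 44.0, 2.98 and 57.2 FPKM in controls and 276, 194 and 109 in libraries labelled med23Δli. Irs2, which passes on the insulin signal, was at 3.20, 0.409 and 6.72 against 13.9, 12.8 and 8.15. These 2 genes were separated between groups, and so were Ppargc1a and Insr of the list, but not Pck1, Pdk4 and Trib1. Of all tested genes, 23.3% were separated in that direction. Neither G6pc nor Irs2 passed the test. The log2 fold change was 3.19 (SE 1.0, limma adjusted p = 0.0562) for G6pc and 2.34 (SE 0.817, adjusted p = 0.0762) for Irs2. Without control replicate 2 these fell to 1.85, which passed (adjusted p = 0.0226), and to 1.27, which did not (0.0537). Without control 3 both passed (0.0269 and 0.0181), and G6pc passed with a pseudocount of 1 (0.0496).

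Of the 7 listed genes 1, the insulin receptor gene Insr, was higher and passed the test, where 11.6% of all tested genes were higher. Its call ended in 5 of 6 fits with 1 library left out. The other 6, Pck1, G6pc, Irs2, Ppargc1a, Pdk4 and Trib1, did not, although Pck1 (adjusted p = 0.0371) and Ppargc1a (0.0163), like G6pc and Irs2, passed without control 3. The median log2 fold change of the list was 0.63 against 0.024 over all tested genes, a difference that was not tested. Within the group labelled med23Δli, Igfbp1 was lowest in the third library, as were 5 of the 7 (48.8% of all tested genes were). Feeding before death was not stated in the sources used here, and its part in these values was not tested.

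**Figure D3:**
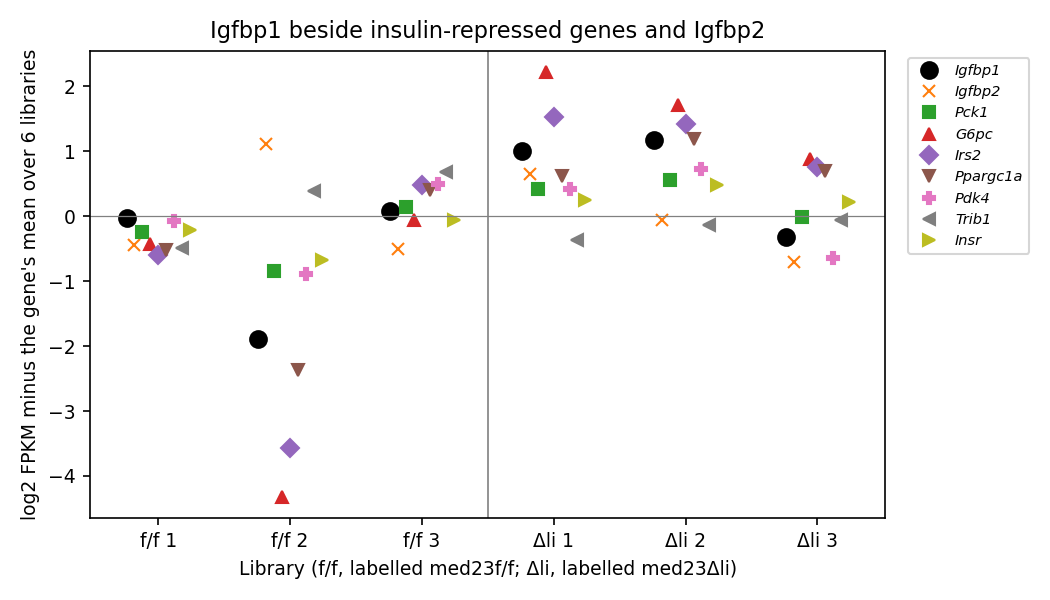
Log2 FPKM of Igfbp1, Igfbp2 and 7 listed insulin-repressed genes in each library, as the difference from the gene's own mean over 6 libraries. Control replicate 2 lies at -1.89 for Igfbp1, -4.32 for G6pc and -3.56 for Irs2, while Igfbp2 is highest there at 1.10.

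Of 10 genes of transcription factors listed as possible regulators of Igfbp1, 2 were higher and passed the test, where 11.6% of all tested genes were higher. A further regulator was left off this list. Foxo3, a forkhead factor, was at 1.34, 1.10 and 0.978 FPKM in controls and at 3.04, 3.57 and 3.64 in libraries labelled med23Δli. It was higher by 1.51 on the log2 scale (SE 0.185, limma adjusted p = 0.00337), and so was Cebpb (0.73, SE 0.218, adjusted p = 0.0479), whose call ended in 5 of 6 fits with 1 library left out, all but that without control 3, at 0.0592 to 0.147. The Cebpb call ended also with no filter (0.0809), median centring (0.0614), quantile normalization (0.115) and no variance trend (0.0642). The other 8 did not pass, among them Foxo1 (0.11, adjusted p = 0.797) and Rora (0.30, adjusted p = 0.487).

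Igfbp2, made by hepatocytes and raised in fetal and fasted liver, ran opposite to Igfbp1 in control replicate 2. It was at 117, 345 and 112 FPKM in controls (191 ± 133, n = 3) and at 250.2, 153 and 97.9 in libraries labelled med23Δli (167 ± 77.1, n = 3). Control replicate 2 was the highest and the third library labelled med23Δli the lowest, and the groups overlapped. The log2 fold change was -0.093 (SE 0.479, 95% interval -1.20 to 1.013, limma adjusted p = 0.905, exact permutation p = 0.8), and its sign turned without control replicate 2 (0.43) or without the third library labelled med23Δli (0.24). The ratio of Igfbp1 to Igfbp2 was 0.213 in control replicate 2 and 2.17 to 4.03 in the other 5 libraries.

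Igfbp3 is the main carrier of IGF in blood, where it forms a complex with the acid-labile subunit encoded by Igfals. It was at 5.67, 8.01 and 13.6 FPKM in controls (9.09 ± 4.06, n = 3) and at 4.19, 4.79 and 9.04 in libraries labelled med23Δli (6.01 ± 2.645, n = 3). The third library was the highest in each group and the groups overlapped. The log2 fold change was -0.58 (SE 0.37, 95% interval -1.43 to 0.27, limma adjusted p = 0.287, exact permutation p = 0.3). It ranged from -0.25 without control 3 to -0.91 without the third library labelled med23Δli, and passed in none of the 6 fits with 1 library left out. Igfals went the other way without passing, at 10.3 to 17.0 FPKM in controls and 15.8 to 25.0 in libraries labelled med23Δli (0.69, SE 0.236, adjusted p = 0.0721), and passed only without control 1 (0.0464).

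The remaining members were near the filter. Igfbp5, which binds the extracellular matrix, was at 0.799, 0.904 and 0.764 FPKM in controls and at 0.482, 0.888 and 0.367 in libraries labelled med23Δli. The second of the latter lay among the controls, so the groups overlapped (log2 fold change -0.51, SE 0.328, 95% interval -1.27 to 0.24, limma adjusted p = 0.288). Without that library, the one with the high adipocyte markers, the log2 fold change was -0.82 (adjusted p = 0.144), and without the third it was -0.28 (0.596). Igfbp6, which prefers IGF2, was at 1.17, 1.21 and 0.693 FPKM in controls and at 1.63, 0.634 and 0.255 in libraries labelled med23Δli. The first of these was the highest and the third the lowest of all 6 (-0.52, SE 0.54, 95% interval -1.77 to 0.73, adjusted p = 0.513). Its log2 fold change was 0.038 without the third and -1.10 without the first. With a pseudocount of 1 the log2 fold changes of Igfbp5 and Igfbp6 shrank to -0.22 and -0.20.

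The family's total and its make-up varied between libraries. The summed level was 1122, 1136 and 1038 FPKM in controls and 1336, 1323 and 820.3 in libraries labelled med23Δli, a log2 ratio of means of 0.078 that turned to -0.036 or -0.027 without the first or second of the latter and rose to 0.275 without the third. Igfbp1 made up 23.7%, 6.47% and 27.8% of the sum in controls and 40.6%, 46.5% and 26.5% in the others. Igfbp4 made up 57.6%, 50.7% and 47.8% against 35.1%, 35.9% and 51.1%. Both shares overlapped between groups, through the third library labelled med23Δli. Igfbp3 stayed at or under 1.31% and Igfbp5 and Igfbp6 at or under 0.122% in every library. Without Igfbp1 the sum was 857, 1063 and 749 FPKM against 794, 708 and 603, which also overlapped.

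**Figure D4:**
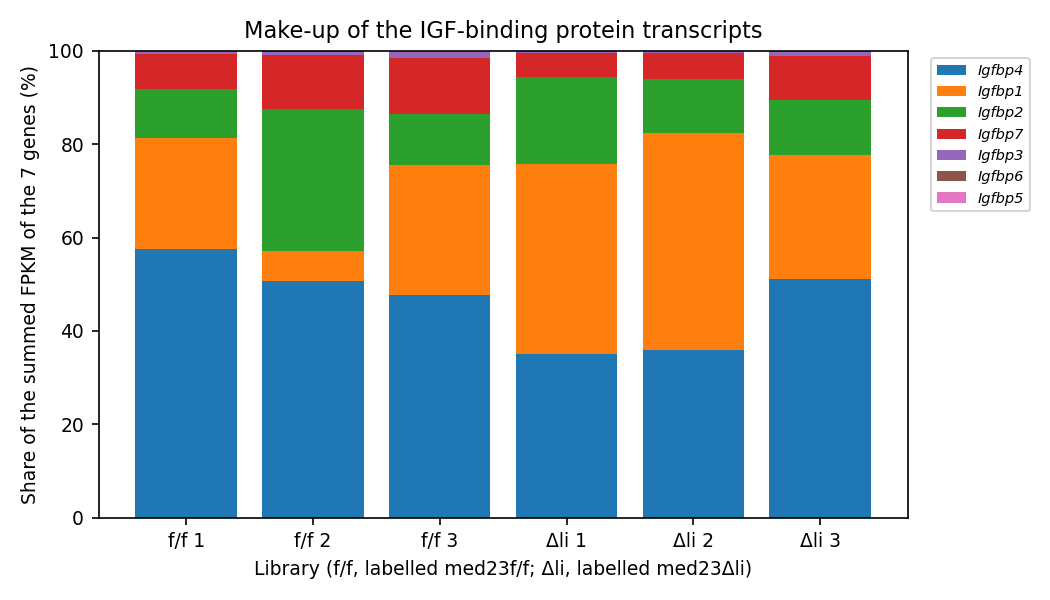
Share (%) of each gene in the summed FPKM of the 7 IGF-binding protein genes, 1 bar per library. Igfbp4 and Igfbp1 together fill most of each bar, and the Igfbp1 share ranges from 6.47% in control replicate 2 to 46.5% in the second library labelled med23Δli.

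The ligand these proteins carry was lower. Igf1 was at 182, 140.5 and 152 FPKM in controls and at 69.6, 99.1 and 63.6 in libraries labelled med23Δli, with no overlap. The log2 fold change was -1.05 (SE 0.195, limma adjusted p = 0.0115), and the call ended without the first library labelled med23Δli (0.0535). Igf2, the fetal ligand, was under the filter at a mean of 0.0845 and 0.0658 FPKM. The summed binding proteins stood at 6.17 to 8.09 times Igf1 in controls and 12.9 to 19.2 times in libraries labelled med23Δli, ranges that did not overlap. Igfbp4 alone stood at 3.28 to 4.10 times Igf1 against 4.79 to 6.74, and Igfbp1 at 0.523 to 1.91 times against 3.42 to 7.80. These ratios share the Igf1 values and were not tested.

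Of the 17 other listed genes of the IGF system, 10 were above the filter, 3 were higher, 1 was lower and 6 did not pass. Of all tested genes, 11.6% were higher and 9.48% lower. The median log2 fold change of the 10 was 0.54, against 0.024 over all tested genes. Grb10, an adaptor that restrains the insulin and IGF1 receptors, was at 1.11, 1.03 and 1.05 FPKM in controls and 5.57, 4.94 and 7.52 in libraries labelled med23Δli (2.37, SE 0.191, limma adjusted p = 0.000918). Igf2r, which clears IGF2, was higher by 0.74 (SE 0.185, adjusted p = 0.0283) and Insr by 0.62 (SE 0.183, adjusted p = 0.0474). The calls of both of these receptors ended in 5 of 6 fits with 1 library left out, the exception being that without control 3, at 0.0551 to 0.103 and 0.0762 to 0.157. That of Insr ended also with no filter (0.0798) and without the variance trend (0.0613). The IGF1 receptor gene Igf1r was under the filter (mean 0.313 and 0.261 FPKM), as were the PAPP-A genes Pappa and Pappa2 and their inhibitors Stc1 and Stc2.

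**Figure D5:**
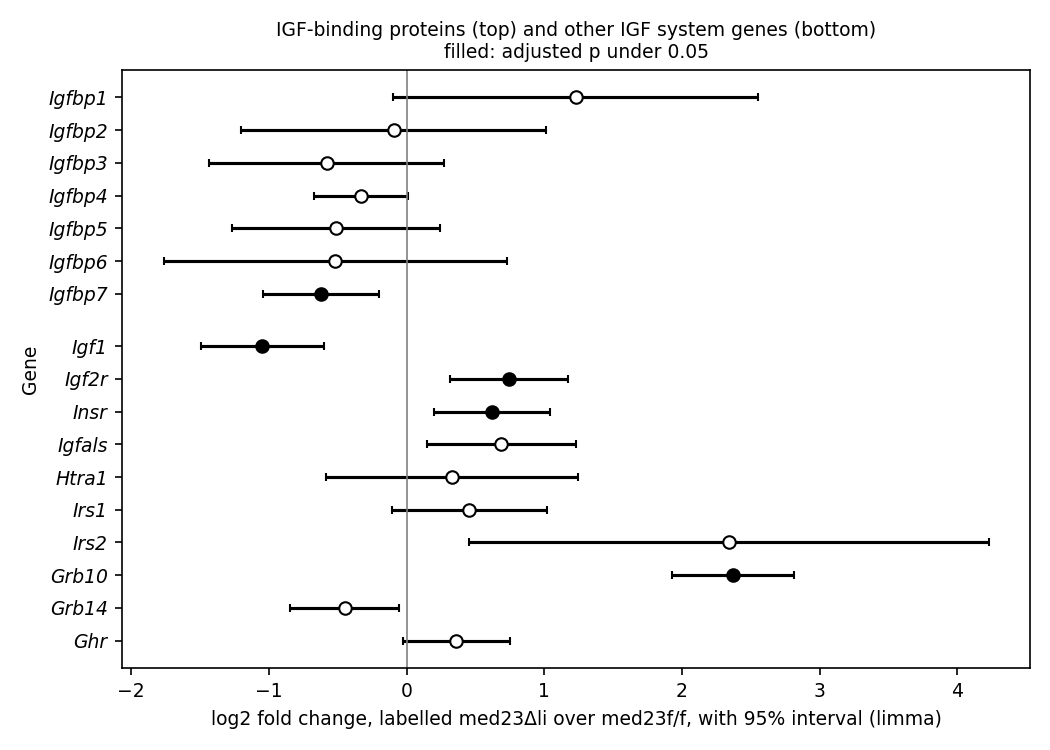
Log2 fold change, libraries labelled med23Δli over controls, with its 95% interval from limma, for the 7 members (top) and the 10 other IGF system genes above the filter (bottom). Filled points have an adjusted p under 0.05. Of the members only Igfbp7 is filled (-0.62), below it Igf1 (-1.05), Igf2r (0.74), Insr (0.62) and Grb10 (2.37).

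Among 11 listed genes whose proteins carry a similar IGF-binding domain, 6 were above the filter and 1 was higher, where 11.6% of all tested genes were. Wisp1, a CCN family matrix protein, was at 1.65, 0.475 and 4.04 FPKM in controls and 17.8, 16.8 and 25.5 in libraries labelled med23Δli (3.62, SE 0.611, limma adjusted p = 0.00857). Its relatives Ctgf (-0.41, adjusted p = 0.358) and Cyr61 (-0.13, adjusted p = 0.679) did not pass, nor did the endothelial gene Esm1 (-0.88, adjusted p = 0.108).

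The genes whose profile over the 6 libraries was most like each member's were found by the root mean square difference of centred log2 values. For Igfbp7 they were C1qa (0.061), Scarf2 (0.061) and Rasip1 (0.086), against a root mean square of 0.371 for its own profile about its mean. C1qa, a complement gene of macrophages, was at 44.3, 71.3 and 64.7 FPKM in controls and 33.9, 35.4 and 40.9 in libraries labelled med23Δli, while the 8 listed Kupffer cell markers summed to 190.4 to 259.3 against 220.3 to 232.4. For Igfbp4 they were Anp32e (0.031), Iars2 (0.034) and Col18a1 (0.036), with 0.206 for its own profile. Col18a1 encodes a basement membrane collagen made in liver.

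For Igfbp1, whose own value was 1.004, the nearest genes were Ndrg4 (0.322), S100a6 (0.327) and Gm13363 (0.329). For Igfbp2 they were Ackr1 (0.197), Retsat (0.21) and Cxx1c (0.284), for Igfbp3 Sh2d5 (0.2), 9130023H24Rik (0.245) and Clec4a2 (0.252), for Igfbp5 Igflr1 (0.056), Chmp4c (0.109) and Parvg (0.134), and for Igfbp6 Chst7 (0.336), Calr3 (0.379) and 1700030K09Rik (0.38). Retsat, a retinol saturase of hepatocytes, was at 155 FPKM in control replicate 2 and 41.8 to 99.6 in the other libraries, the same library being highest for Igfbp2. With 6 libraries a close match among 11956 genes says only that the values run alike. The nearest member to another was Igfbp4 for Igfbp5, and the reverse, at 0.311.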

How the data were processed

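Whole-liver RNA of 3 control mice and 3 mice labelled med23 ko was sequenced as paired reads on an Illumina instrument. The authors assessed reads with FastQC, trimmed adapters, aligned to mm10 with TopHat and ran Cuffdiff. Versions and the gene annotation are not given in the sources used here. The deposited values are FPKM per library. Per the labels, groups followed the genotype. Columns with the authors' group means, fold changes, test statistics, p-values and q-values were not used. Whole reads were not recovered from the FPKM values.

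Values were taken as log2(FPKM + 0.1) where a gene averaged 0.5 FPKM or more over the 6 libraries (11956 genes), and fitted by limma (version 3.58.1, R 4.3.3, eBayes with trend), with Benjamini-Hochberg adjustment over these genes. Single members were also compared by exact two-sided permutation in Python 3.11.15 with numpy 2.4.6. The fit was tested on simulated data. Alternatives covered the pseudocount, filter, scaling, variance model, replicate block and each library left out. Named genes were the 7 members, the listed genes of the IGF system, its domain relatives, insulin-repressed genes and possible Igfbp1 regulators, cell markers, and the 3 genes most like each member. The members and lists were chosen with earlier results of these data known. Members were matched to GENCODE M21 by symbol (7 of 7) and to RefSeq promoters. A further regulator of Igfbp1 was left off the list and is not reported here.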

Additional observations from a re-analysis of the deposited data

How the results depend on the processing

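Leaving out 1 library at a time moved the log2 fold change of Igfbp7 between -0.818 and -0.504 and kept its call only without control 1. With no filter its log2 fold change was -0.621 (adjusted p = 0.0727), and without the variance trend (0.0633) or with the replicate block (0.0552) it was the same -0.621. The exact permutation p was 0.1, which cannot pass. The count of members that were lower was therefore 0 with no filter, without trend and with the block, 2 with quantile normalization, where Igfbp4 was at -0.443 (adjusted p = 0.0347), and 0 to 1 over left-out libraries, against 1. Igfbp2 turned to 0.435 without control 2 and 0.239 without the third library labelled med23Δli, and Igfbp6 to 0.038 without the latter. Leaving out libraries put Igfbp1 between 0.591 and 1.698, Igfbp2 between -0.437 and 0.435, Igfbp3 between -0.911 and -0.246, Igfbp4 between -0.429 and -0.238, Igfbp5 between -0.819 and -0.279, Igfbp6 between -1.104 and 0.038, and the log2 ratio of the summed members between -0.036 and 0.275, with -0.027 without the second library labelled med23Δli. The other IGF system genes gave 1 to 4 higher and 0 to 2 lower, and all tested genes 401 to 1750 higher and 349 to 1429 lower. The cause of these shifts was not tested, except that each left-out fit has fewer samples. Igfbp5 and Igfbp6 were below a filter of 1 FPKM and have no value there. Centring and quantile normalization moved the median of all genes by -0.029 and -0.037.

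The replicate numbers did not pair the samples: deviations from the group means correlated at -0.022, -0.046 and -0.124 for the same number, and no library correlated best with its own number. With the replicate block, 809 genes were higher and 614 lower, against 1384 and 1133, and 1 other IGF system gene was higher, against 3, as the calls of Igf2r (adjusted p = 0.0701) and Insr (0.105) ended.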
